A study of Homo sapiens with 12 samples.

Results

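The smooth muscle contractile genes described here are 9 genes of the actin-based contractile apparatus: TAGLN, CNN1, CNN2, ACTA2, ACTG2, MYL9, TPM1, TPM2 and CALD1. They were listed as contractile genes regulated by serum response factor (SRF), and were chosen by their measured log2 changes, because TAGLN and CNN1 stood high with hairpin sh_37 and less high with sh_38. All 9 were measured, each by 1 probe set, among 18417 genes with a value. Because the sh_37 and sh_38 values chose the genes, their changes with these hairpins, and the difference between them, are given as a description without a test. Test results that carry weight for the 9 are those of the H2AZ1 hairpins and of the control hairpins, and counts of calls among the 9 with sh_37 or sh_38 only describe what was chosen.

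Messenger RNA was measured on 12 Affymetrix arrays of SK-mel147, an established human melanoma cell line, infected with lentiviral short hairpin RNAs against H2AZ1 or H2AZ2, the genes that encode the histone variant H2A.Z. The groups were sh_37 and sh_38 against H2AZ2, sh_83 and sh_84 against H2AZ1, and the control hairpins scrambled and luciferase, with 2 arrays each. All cells carried a lentiviral hairpin, so no array shows uninfected cells. Nothing in the labels says that the 2 arrays of a hairpin came from separate infections, so the spread behind each p-value is that of these arrays alone and may be technical. The labels of replicate 2 of sh_84 give one hairpin in the title and another in the RNAi field, and it was grouped by its title.

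Contractile filaments of smooth muscle slide when the regulatory light chain of myosin is phosphorylated, and thin filaments of actin carry tropomyosin, caldesmon and calponin, which set how readily myosin can engage. Genes of this apparatus are classical targets of SRF, a transcription factor that binds the CArG box and works with myocardin or the myocardin-related factors (MRTF) on contractile genes and with ternary complex factors (TCF) on immediate-early genes. Outside muscle the same genes are used in stress fibres of fibroblasts and of many cultured tumour cells.

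The knockdowns behind the comparisons differed in depth. On the log2 scale used throughout, H2AZ2 read 9.94 and 9.83 with sh_37 and 10.43 and 10.35 with sh_38, against 10.94 to 11.05 on the 4 control arrays. These means correspond to 46.1% (sh_37) and 65.4% (sh_38) of the control level. H2AZ1 was lowered to 19.3% by sh_83, but on the arrays labelled sh_84 it stood at only -0.12 on the log2 scale (limma adjusted p = 0.859), so these arrays do not show the knockdown their label names. Array medians over all probe sets were at most 7.10. Of the lineage markers of melanocytes, SOX10 averaged 10.47, MITF 8.27 and S100B 5.38. The pigment genes PMEL, MLANA, TYR and TYRP1 averaged between 4.81 and 5.75. Background signal is unknown and probe sets differ in brightness, so levels of different genes cannot be ranked and absence cannot be read from them.

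The promoters of the genes were read first for the SRF site that the listing refers to. A CArG box was taken as CC, a core of 6 bases that are all A or T, and GG, and a CArG-like site as the same with 1 G or C in the core; both classes are their own reverse complement. RefSeq windows of the GRCh38.p14 build, from 250 bases before to 50 after a gene start, were at hand for 7 of the 9 genes, in 12 windows. TAGLN and MYL9 had no such window. Of all 35116 windows of this length, 1.29% held a CArG box and 6.94% a CArG-like site. Among the 9 genes, the windows of ACTG2 and CNN2 held a CArG box, and 1 window each of ACTA2 and CALD1 held a CArG-like site. The following stretches show these sites, 5′ to 3′ on the strand of the gene, with the site in capitals, followed by CNN1, whose window held neither.
ACTG2, chr2:73892878-73892964, plus strand: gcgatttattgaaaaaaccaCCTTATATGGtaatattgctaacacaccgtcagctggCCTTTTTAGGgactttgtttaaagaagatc
CNN2, chr19:1026499-1026548, plus strand: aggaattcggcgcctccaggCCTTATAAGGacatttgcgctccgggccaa
ACTA2, chr10:88952815-88952914, minus strand: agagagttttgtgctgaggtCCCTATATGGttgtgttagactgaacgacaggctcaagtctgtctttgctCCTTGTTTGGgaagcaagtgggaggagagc
CALD1, chr7:134711453-134711498, plus strand: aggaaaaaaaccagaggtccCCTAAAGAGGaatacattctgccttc
CNN1, chr19:11538751-11538850, plus strand: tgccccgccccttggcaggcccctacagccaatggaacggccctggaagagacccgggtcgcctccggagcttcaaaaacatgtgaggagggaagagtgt
The sites of ACTG2 began 110 and 73 bases before the start its window was built on, that of CNN2 89 bases and that of CALD1 26 bases. Those of ACTA2 began 121 and 71 bases before a transcript start that lies inside the span of the gene, not at its outermost start. ACTA2 was matched in 1 of 2 windows and CALD1 in 1 of 4, since these genes have several starts. A match is a run of letters and not a measured binding site, and the windows of CNN1, TPM1 and TPM2 lack these letters only within the bases examined.

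TAGLN and CNN1, 2 relatives that share the calponin fold, had the largest changes of the 9 with both H2AZ2 hairpins. TAGLN (transgelin, also called SM22-alpha, an actin-bundling protein, at chr11:117199294-117207465 in GRCh38.p14) read 9.88 and 9.95 with sh_37 and 8.33 and 8.27 with sh_38. It read 7.37 and 7.72 with sh_83, 7.26 and 7.49 on the arrays labelled sh_84, and 7.48, 7.67, 7.51 and 7.67 on the control arrays. Both sh_37 arrays lay above both sh_38 arrays, these lay above every control array, and the H2AZ1 arrays overlapped the controls. Its log2 change against the mean of both control hairpins was 2.33 (SE 0.11) with sh_37, or 5.04-fold, and 0.72 (SE 0.11) with sh_38, or 1.65-fold. In bulk RNA a change per cell and a change in the share of cells that express a gene cannot be told apart.

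CNN1 (calponin 1, which binds actin and inhibits myosin ATPase, at chr19:11538851-11550323) read 10.17 and 10.23 with sh_37 and 8.10 and 8.24 with sh_38. With sh_83 it read 7.70 and 7.65, on the arrays labelled sh_84 7.89 and 7.84, and on the control arrays 7.59, 7.81, 7.85 and 7.87. The order was the same as for TAGLN, with the sh_38 arrays above all control arrays and far below those of sh_37. The log2 change was 2.42 (SE 0.08) with sh_37, or 5.34-fold, and 0.39 (SE 0.08) with sh_38, or 1.31-fold. Among the 18417 genes ordered by change with sh_37, from the highest down, CNN1 was number 4 and TAGLN number 6. With sh_38 TAGLN was number 26 and CNN1 number 321.

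**Figure D1:**
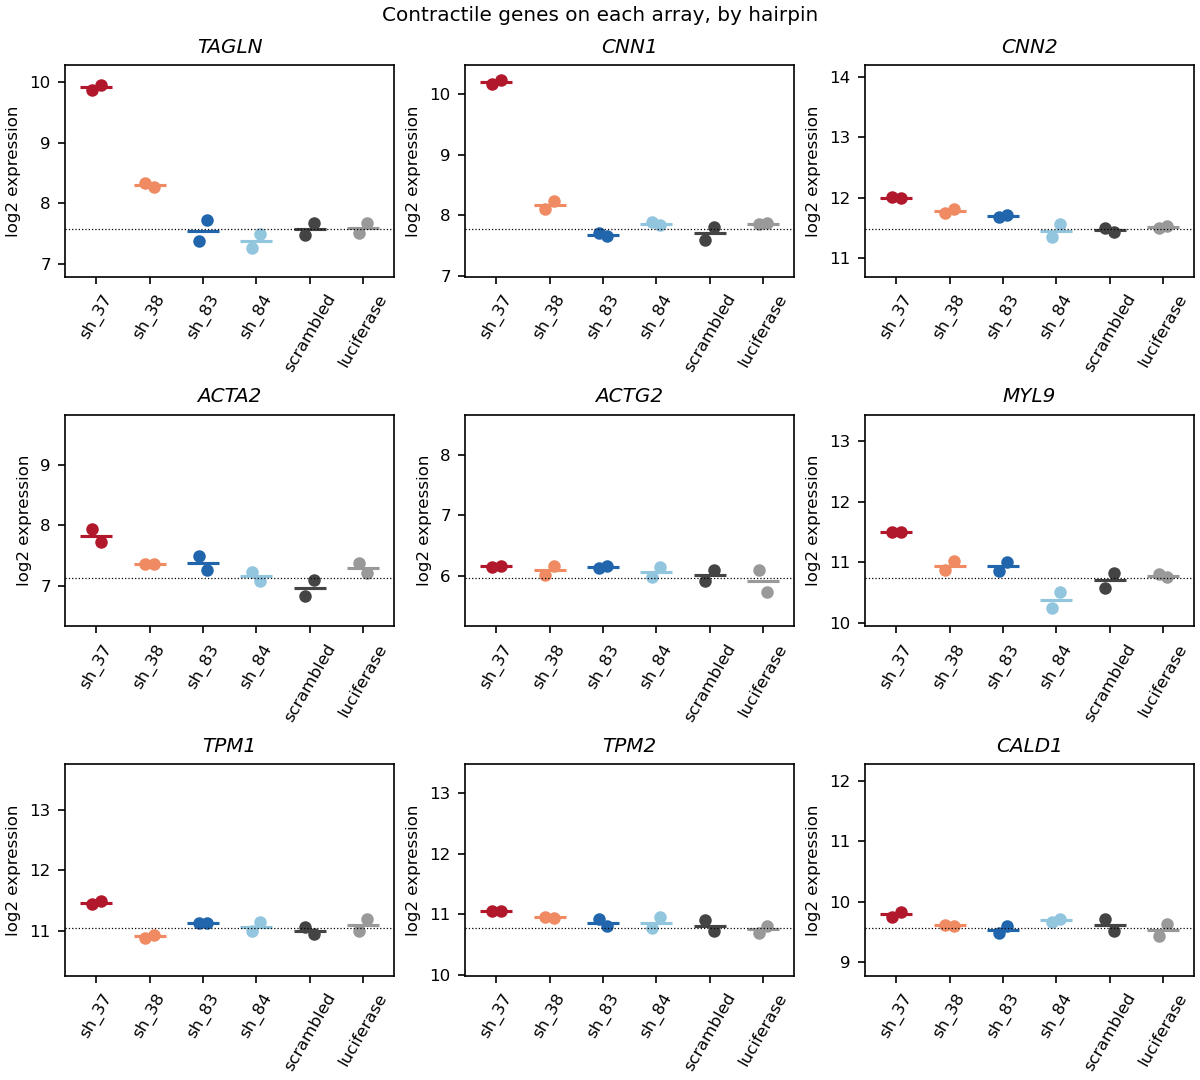
Log2 expression (vertical axes, all spanning the same number of log2 units) of each of the 9 contractile genes on the 12 arrays, by hairpin; points are arrays, short lines hairpin means and dotted lines the mean of the 4 control arrays. TAGLN and CNN1 stand near 10 with sh_37 and near 8 with sh_38, while ACTG2 stays close to 6 with every hairpin.

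CNN2 (calponin 2, the calponin of nonmuscle cells, at chr19:1026608-1039065) changed less than CNN1 with sh_37. It read 12.01 and 11.99 with sh_37, 11.74 and 11.81 with sh_38 and 11.68 and 11.71 with sh_83. On the arrays labelled sh_84 it read 11.34 and 11.56, and on the control arrays 11.49, 11.43, 11.49 and 11.54. The arrays of sh_37, sh_38 and sh_83 all lay above the 4 controls, and those labelled sh_84 overlapped them. The log2 change was 0.51 (SE 0.08) with sh_37 and 0.29 (SE 0.08) with sh_38.

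MYL9, the regulatory light chain of smooth muscle myosin and the substrate of myosin light chain kinase, lies at chr20:36541519-36551447. It read 11.49 on both sh_37 arrays, 10.86 and 11.02 with sh_38, 10.86 and 11.00 with sh_83, 10.25 and 10.52 on the arrays labelled sh_84, and 10.58, 10.82, 10.80 and 10.75 on the control arrays. Its sh_38 and sh_83 arrays lay just above the controls, within overlapping ranges of each other, and those labelled sh_84 lay below all 4 controls. The log2 change was 0.76 (SE 0.10) with sh_37 and 0.21 (SE 0.10) with sh_38.

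The actins of smooth muscle differed from each other. ACTA2, the alpha actin of vascular smooth muscle and of myofibroblasts, at chr10:88935074-88991337, read 7.94 and 7.72 with sh_37 and 7.36 on both sh_38 arrays. It read 7.49 and 7.26 with sh_83, 7.23 and 7.08 on the arrays labelled sh_84, 6.83 and 7.10 with scrambled and 7.38 and 7.21 with luciferase. The sh_37 arrays lay above all others, and those of sh_38 and sh_83 lay within or just above the luciferase values. The log2 change was 0.70 (SE 0.11) with sh_37 and 0.23 (SE 0.11) with sh_38. With scrambled alone as control these became 0.87 and 0.40, and with luciferase alone 0.54 and 0.07, so the sh_38 value depended on the control chosen.

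The annotated span of ACTA2 overlaps that of FAS, the p53-regulated death receptor (chr10:88964050-89017059). FAS rose by 0.39 with sh_37 (SE 0.10, limma adjusted p = 0.0201) and by 0.95 with sh_38 (SE 0.10, limma adjusted p = 0.000663), the opposite order of hairpins to ACTA2. It read 7.91 and 7.98 with sh_37 and 8.65 and 8.36 with sh_38, against 7.40 and 7.37 with scrambled and 7.65 and 7.81 with luciferase. The size of its sh_37 change thus depended on the control hairpin. The antisense gene ACTA2-AS1, measured by a probe set of its own, stood at -0.25 with sh_37 and -0.18 with sh_38 and did not pass (limma adjusted p = 0.063 and 0.225). The span of TAGLN likewise overlaps that of PCSK7 (chr11:117204337-117232073). PCSK7 stood at 0.29 with sh_37 and 0.20 with sh_38 and did not pass (limma adjusted p = 0.0602 and 0.251). Whether any of these transcripts shares signal with another was not tested.

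ACTG2, the gamma actin of enteric smooth muscle (chr2:73893008-73919865), hardly varied, with 6.15 and 6.16 for sh_37 and 6.01 and 6.16 for sh_38, against 5.91, 6.10, 6.10 and 5.73 on the control arrays. Its log2 change was 0.19 (SE 0.11) with sh_37 and 0.13 (SE 0.11) with sh_38. It had the smallest change of the 9 with sh_37.

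The tropomyosins wind along actin filaments and control access of myosin. TPM1 (chr15:63042747-63071915) read 11.43 and 11.48 with sh_37 and 10.88 and 10.93 with sh_38, against 11.06, 10.94, 11.00 and 11.19 on the control arrays. The sh_37 arrays lay above all controls and the sh_38 arrays below them, the only gene of the 9 on opposite sides with the H2AZ2 hairpins. The log2 change was 0.41 (SE 0.08) with sh_37 and -0.14 (SE 0.08) with sh_38. TPM2 (chr9:35681993-35690056) read 11.05 and 11.06 with sh_37 and 10.96 and 10.94 with sh_38, against 10.90, 10.72, 10.69 and 10.81 on the control arrays. These are log2 changes of 0.27 and 0.17 (SE 0.09 each), with the H2AZ2 arrays of both hairpins above the controls. CALD1, which encodes caldesmon, an inhibitor of actomyosin (chr7:134711499-134970729), read 9.75 and 9.83 with sh_37 and 9.62 and 9.60 with sh_38, against 9.71, 9.51, 9.44 and 9.63 on the control arrays. Its log2 changes were 0.22 and 0.04 (SE 0.09 each). TPM1, TPM2 and CALD1 are spliced into muscle and nonmuscle forms, which 1 value per gene does not separate.

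**Figure D2:**
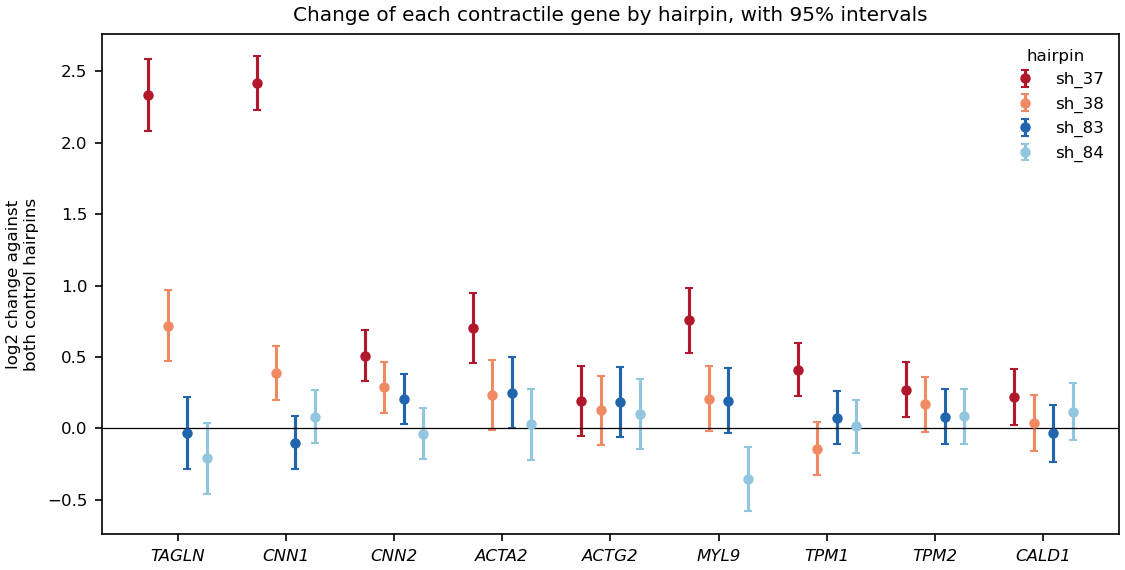
Log2 change (vertical axis) of each contractile gene with each hairpin against the mean of both control hairpins; points are estimates from 2 arrays per hairpin and bars 95% intervals from the limma fit. TAGLN and CNN1 stand at 2.33 and 2.42 with sh_37 and at 0.72 and 0.39 with sh_38; MYL9 is lowest on the arrays labelled sh_84, at -0.36.

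As a group, the 9 genes had a median log2 change of 0.51 with sh_37, beside 0.01 for all 18417 genes, and of 0.21 with sh_38, beside 0.03. These medians and the next counts come from the contrasts that chose the genes. Any excess over all genes was fixed by that choice, and nothing is read from it. With sh_37, 6 of the 9 passed a limma adjusted p of 0.05 upward, where 5.72% of all genes did, and 9 had both arrays above every control array, where 13.9% of all genes did. With sh_38 the corresponding counts were 2 (TAGLN and CNN1), where 1.28% of all genes passed upward and 4.6% in either direction, and 5, where 9.49% did, while TPM1 lay below every control, where 12.8% of all genes did. The sh_38 count rested on few arrays and was 1 against luciferase alone and 0 without replicate 2 of sh_38.

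The differences between the H2AZ2 hairpins, sh_37 minus sh_38 on the log2 scale, were 2.03 (SE 0.10) for CNN1 and 1.61 (SE 0.13) for TAGLN. TPM1 and MYL9 followed, each with a difference of 0.55, and then ACTA2 with 0.47. CNN2 (0.22), CALD1 (0.18), TPM2 (0.10) and ACTG2 (0.07) differed by less. Every one of these differences was above 0, with a median of 0.47, but the 95% intervals of ACTG2, TPM2 and CALD1 included 0. The median for all genes was -0.03, and 6.27% of them passed by limma, 4.07% upward and 2.2% downward. Since the genes were chosen for standing higher with sh_37 than with sh_38, nothing is read from the sign or median of their differences.

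H2AZ1 hairpins gave a comparison that the choice of genes did not use, though it shares the control arrays with the values above. With sh_83, the effective H2AZ1 hairpin, none of the 9 genes passed by limma, where 0.641% of all genes did (0.489% downward and 0.152% upward). At an unadjusted p under 0.05 CNN2 and ACTA2 passed, 2 of 9, beside 1878 of 18417 genes. TAGLN stood at -0.03 (95% interval -0.28 to 0.22, limma adjusted p = 0.937) and CNN1 at -0.10 (95% interval -0.29 to 0.09, limma adjusted p = 0.72). The highest values were those of ACTA2 (0.25, limma adjusted p = 0.485), CNN2 (0.21, limma adjusted p = 0.400) and MYL9 (0.19, limma adjusted p = 0.576). The changes of ACTG2, TPM1, TPM2 and CALD1 lay between -0.03 and 0.19. CNN2, ACTG2 and MYL9 had both arrays above every control array, 3 of 9, where 6.88% of all genes did.

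On the arrays labelled sh_84, none of the 9 genes passed by limma either, where 0.353% of all genes did (0.342% downward and 0.0109% upward), and 1 did at an unadjusted p under 0.05, beside 1540 of all genes. That gene was MYL9, with a log2 change of -0.36 (SE 0.10, 95% interval -0.58 to -0.13, limma adjusted p = 0.254). It was also the only one of the 9 with both arrays below every control array, where 9.53% of all genes lay, and none of the 9 lay above, where 4.76% did. TAGLN stood at -0.21 (95% interval -0.46 to 0.04) and CNN1 at 0.08 (95% interval -0.10 to 0.27). Set directly against each other, sh_83 and the arrays labelled sh_84 differed for MYL9 by 0.55 (SE 0.12, limma adjusted p = 0.0568), just short of the threshold that 1.19% of all genes passed. It passed under 5 of 18 alternatives, with the same difference.

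Scrambled against luciferase serves as background between hairpins that target no human gene. None of the 9 genes passed by limma, nor did any other gene (0% of all genes), and ACTA2 alone of the 9 had an unadjusted p under 0.05, beside 1384 of all genes. ACTA2 stood at -0.33 (SE 0.13, limma adjusted p = 0.661), the widest gap of the 9 between the controls. TAGLN stood at -0.02 and CNN1 at -0.16.

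The other genes of the pathway were followed in 6 lists of 84 entries, none holding one of the 9, of which 76 were measured. With sh_37, 5 of the 76 rose and 5 fell by limma, where 5.72% of all genes rose and 7.19% fell. With sh_38, 1 rose and 4 fell, where 1.28% and 3.33% did. These shares are near those of all genes, and the medians of the 76 were 0.03 and 0.02, beside 0.01 and 0.03 for all genes. Only 1 gene of these lists rose with both hairpins: MYLK, which encodes the kinase that phosphorylates the product of MYL9.

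MYLK read 9.84 and 9.82 with sh_37, 9.39 and 9.34 with sh_38, 9.27 and 9.06 with sh_83, 8.77 and 8.58 on the arrays labelled sh_84, and 8.74, 8.62, 8.92 and 8.87 on the control arrays. It fell into the same order as TAGLN for the H2AZ2 hairpins, and its sh_83 arrays also lay above the controls. The log2 change was 1.05 with sh_37 (SE 0.09, limma adjusted p = 4.6e-05) and 0.58 with sh_38 (SE 0.09, limma adjusted p = 0.00555). With sh_83 it stood at 0.38 (limma adjusted p = 0.104). With the hairpin as a random block MYLK rose by 0.81 over both H2AZ2 hairpins (SE 0.16, limma adjusted p = 0.0151). MYLK differed by 0.47 between the H2AZ2 hairpins and by 0.49 between sh_83 and the arrays labelled sh_84. That fit used 1 correlation for all genes, so this SE may be too small. In that fit 3.31% of all genes passed, 0.863% upward and 2.44% downward. Of the 76 listed genes, 1 rose and 3 fell in it, TGM2 (-0.69, limma adjusted p = 0.0022) and CIT (-0.49, limma adjusted p = 0.0371) among the latter.

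Among the 17 other smooth muscle genes measured, MYLK and NEXN rose with sh_37 and none fell (median 0.11). NEXN, which encodes the actin-binding protein nexilin, read 10.35 and 10.25 with sh_37, 9.82 and 9.56 with sh_38 and 9.17 to 9.75 on the control arrays. Its log2 change was 0.79 with sh_37 (SE 0.13, limma adjusted p = 0.00271). With sh_38 it stood at 0.17 and did not pass (limma adjusted p = 0.46). Tested directly, sh_37 minus sh_38 was 0.61 for NEXN (limma adjusted p = 0.0375), 0.61 for CSRP1 (limma adjusted p = 0.00164) and 0.47 for MYLK (limma adjusted p = 0.0213), where 4.07% of all genes were higher with sh_37. CSRP1, a LIM protein of smooth muscle, fell with sh_38 (-0.39, limma adjusted p = 0.0115) and stood at 0.22 with sh_37 (limma adjusted p = 0.0789), a split between the hairpins in the same sense as that of TPM1. MYH11, the smooth muscle myosin heavy chain and the most specific marker of the lineage, stood at -0.10 and 0.08, and DES, which encodes desmin, at 0.02 and 0.12.

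Of 12 paralogs of the 9 genes, 1 rose with sh_37 and none fell (median 0.11). This was CNN3, the third calponin (0.39, SE 0.08, limma adjusted p = 0.00847). With sh_38 CNN3 stood at 0.03. The nonmuscle actins ACTB and ACTG1 stood at -0.01 and 0.07 with sh_37 and at -0.02 and 0.04 with sh_38. TAGLN2, the widely expressed relative of TAGLN, stood at -0.03 and -0.09.

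Over all genes, 12.9% passed by limma with sh_37 and 4.6% with sh_38, in either direction. The lists of genes that carry SRF signalling are too short to show fewer calls than these shares. Of 9 genes of SRF and its cofactors, 1 fell with sh_37 and none rose: ELK3, a ternary complex factor (-0.38, SE 0.07, limma adjusted p = 0.00516), which stood at -0.01 with sh_38. SRF itself stood at -0.26 with sh_37 (limma adjusted p = 0.0893) and -0.04 with sh_38, MRTFB at 0.11 and -0.18, and MYOCD, which encodes myocardin, at 0.16 and 0.11. MRTFA had no probe set with 1 symbol and is not reported. Of 10 immediate-early genes linked to ternary complex factors none passed by limma with either hairpin. The values furthest from 0 with sh_37 were those of EGR1 (-0.41, limma adjusted p = 0.0622) and MCL1 (-0.27, limma adjusted p = 0.0608).

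Of 13 SRF targets linked to MRTF that are not contractile subunits, 2 rose and 1 fell with sh_37 (median 0.15). MYH9, a nonmuscle myosin heavy chain, stood 0.30 higher (SE 0.07, limma adjusted p = 0.0219) and ITGB1, the beta-1 integrin, 0.26 higher (SE 0.07, limma adjusted p = 0.0429). TGM2, a transglutaminase, fell by 0.74 (SE 0.08, limma adjusted p = 0.000243) and with sh_38 by 0.64 (SE 0.08, limma adjusted p = 0.00207). VCL, which encodes vinculin, stood at 0.22 and -0.08, CCN1 at 0.19 and 0.03, and CCN2 at 0.04 and -0.30, none of them past the threshold.

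Of 15 regulators of nonmuscle contraction 3 fell with sh_37 and none rose (median -0.07). Among them CIT, the citron kinase of cytokinesis, fell by 0.63 (SE 0.09, limma adjusted p = 0.000825) and DIAPH3, a formin, by 0.50 (SE 0.12, limma adjusted p = 0.0187). CIT also fell with sh_38, by 0.36 (limma adjusted p = 0.0406). MYH10, another nonmuscle myosin heavy chain, fell by 0.79 with sh_38 (limma adjusted p = 0.00122) and stood at -0.23 with sh_37. No gene of the 6 lists passed by limma with sh_83 or on the arrays labelled sh_84, where 0.641% and 0.353% of all genes did. At an unadjusted p under 0.05, 6 and 9 of the 76 passed, beside 1878 and 1540 of 18417 genes. Nothing particular to the lists is read from these counts.

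**Figure D3:**
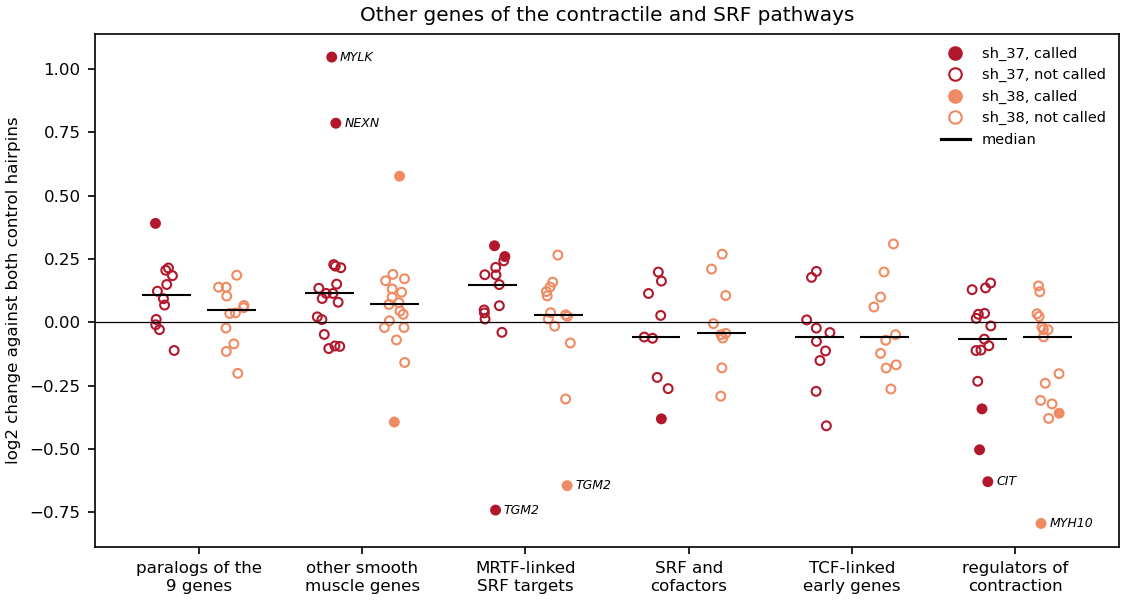
Log2 change (vertical axis) of the 76 measured genes of 6 pathway lists with sh_37 (dark) and sh_38 (light) against both control hairpins; filled points passed a limma adjusted p of 0.05, open points did not, and black lines are list medians. MYLK and NEXN stand highest with sh_37, at 1.05 and 0.79, and the list medians lie between -0.07 and 0.15.

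Markers of other cell types were read beside these values. For the 8 smooth muscle and pericyte markers the mean level per array was 6.18 to 6.37 with sh_37 and 6.25 to 6.42 with sh_38, against 6.04 to 6.34 on the control arrays, and the potassium channel subunit gene ABCC9 alone passed, at 0.28 with sh_37 and 0.35 with sh_38 (limma adjusted p = 0.0342 and 0.0271). For the 8 fibroblast markers it was 6.52 to 6.53 with sh_37 and 6.30 to 6.47 with sh_38, against 6.08 to 6.25 on the control arrays. Of these, COL1A1, a collagen chain, passed with sh_37 (0.69, limma adjusted p = 0.00401) and LUM, which encodes the proteoglycan lumican, with both (log2 change 1.27 with sh_37, limma adjusted p = 1.18e-05, and 0.38 with sh_38, limma adjusted p = 0.0374). LUM also varied elsewhere: it stood at -0.85 on the arrays labelled sh_84 (limma adjusted p = 0.00396) and at -0.76 for scrambled against luciferase (limma adjusted p = 0.287). DCN and POSTN, abundant fibroblast transcripts, averaged 3.55 and 3.69 over all arrays. None of the 6 endothelial and 5 leukocyte markers passed with either hairpin. Of all genes 12.9% passed with sh_37 and 4.6% with sh_38, in either direction, and these marker lists are too short to show fewer calls. Of 7 melanocyte markers, SOX10 passed with sh_37 at the threshold itself (-0.30, limma adjusted p = 0.05) and none passed with sh_38. The part of other cells in the contractile values was not tested.

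The genes whose values ran most like those of TAGLN and CNN1 were sought over the 12 arrays, among 9341 genes outside the 9 whose values spanned at least 0.5 log2 units. Pearson's r describes likeness only, since the arrays of a hairpin share their cells and the sh_37 arrays dominate it. For TAGLN these were FOSL2, a subunit of the AP-1 factor (r = 0.99), DIO2, which activates thyroid hormone (0.99), MN1, a transcriptional coregulator (0.98), CCDC80, a matrix protein (0.98), and DCBLD1 (0.98). FOSL2 followed the order of TAGLN on a smaller scale, with log2 changes of 0.57 with sh_37 and 0.14 with sh_38, beside 2.00 and 0.61 for DIO2 and 1.98 and 0.55 for DCBLD1. For CNN1 they were RFPL4A (0.99), whose near-identical copies make its value uncertain, TNFRSF9, a receptor of the tumour necrosis factor family (0.98), HOXB9, a homeobox factor (0.98), IGFBP5, which binds insulin-like growth factors (0.97), and MN1 again (0.97). TNFRSF9 stood at 2.97 with sh_37 and 0.47 with sh_38, and HOXB9 at 1.59 and 0.01.

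**Figure D4:**
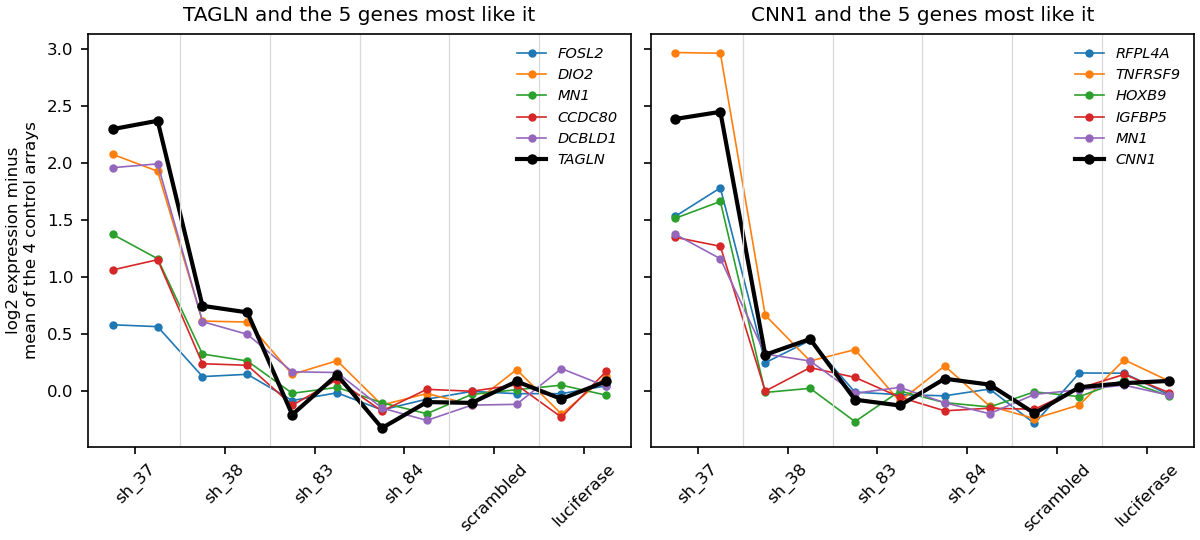
Log2 expression minus the mean of the 4 control arrays (vertical axis) for TAGLN (left) and CNN1 (right), in black, and the 5 genes with the highest Pearson r over the 12 arrays; hairpins run along the horizontal axis with 2 arrays each. Every line peaks on the sh_37 arrays, with TAGLN at 2.33 and CNN1 at 2.42 above the controls on average.

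Among the 9 genes themselves the likeness over the 12 arrays was mostly that of the sh_37 arrays. Of the 36 pairs 35 had r above 0, with a median of 0.64. Over the 10 arrays without sh_37, 25 pairs did, with a median of 0.15. TAGLN and CNN1 had r = 0.97 over all arrays and 0.74 without those of sh_37, and TAGLN and MYL9 0.89 and 0.65. The 10 arrays still hold those of sh_38, which also served to choose the genes, so nothing is read from these values. For deviations of the arrays from their hairpin means, r was 0.09 for TAGLN with CNN1 and 0.66 for TAGLN with MYL9. TPM1 turned from r = 0.72 with TAGLN to -0.55 without the sh_37 arrays.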

How the data were processed

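The deposited values are log2 expression per probe set, which the authors computed by RMA, according to the submitters' processing notes; its version and settings: not given in the sources used here. No further normalization was applied. Genes were named from the 19460 of 33297 probe sets with 1 symbol in the platform annotation (1754 had several, 12083 were unlisted). The brightest set per gene was kept, which left 18417 genes.

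The main fit in limma 3.58.1 (R 4.3.3) took the 6 hairpins as groups of 2 arrays that share 1 estimate of spread per gene, moderated by eBayes, with p-values adjusted by Benjamini-Hochberg across the 18417 genes at 0.05. It ignores spread between hairpins of a target. A second fit of 3 targets took hairpins as random blocks, with 1 correlation for all genes (consensus 0.157 from duplicateCorrelation). With few hairpins per target, this second fit may give too small a spread to genes whose hairpins differ strongly. It also pools sh_83 with the arrays labelled sh_84. On simulated arrays with 18417 genes, the sh_83 contrast recovered 54% of changes of 0.5 and 90% of changes of 1 on the log2 scale. There, 100 genes were changed by each amount, and noise was independent between arrays without added spread between hairpins. The rates may therefore not hold for the deposited arrays.

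The 9 genes, the pathway and marker lists and the tests were chosen with earlier results of these data known. From each list were named the up to 4 called genes with the largest change with sh_37, or the 2 largest where none was called, except 1 called gene of the contraction list, which is not reported here. The genes MYH10, CSRP1, FAS, the called marker genes and further uncalled genes were named after their values were seen. Alternatives covered the control hairpin, probe set averaging, dim genes, normalization, the variance model, the replicate block, each array left out and, added after seeing the data, both arrays labelled sh_84 left out. The number of arrays limits the precision. Promoter sequences are from RefSeq, GRCh38.p14. Figures were drawn with matplotlib 3.10.9.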

Additional observations from a re-analysis of the deposited data

Results flagged for a closer look

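Among the 9 genes in the 3 sets of 4 arrays per target, 27 in all, 2 values stood far from the other 3 of their set by Dixon's criterion. Its chance rate of about 1 in 20 holds for 4 values of 1 distribution. Each set here joins 2 hairpins, so that rate does not apply and the values are only pointed out. ACTG2 read 6.01 on replicate 1 of sh_38, below the other H2AZ2 arrays, which lay between 6.15 and 6.16. TPM1 read 10.99 on replicate 1 of the arrays labelled sh_84, below the other H2AZ1 arrays, which lay between 11.12 and 11.14. Neither value belongs to a gene that passed a test with H2AZ1 hairpins.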

How the results depend on the processing

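With sh_37, 6 of the 9 genes passed, and 6 to 8 did under the alternatives (5 to 7 with single arrays left out), while their median change of 0.51 became 0.61 without the dimmest 25% of genes, which removes ACTG2, and lay between 0.49 and 0.52 with single arrays left out. With sh_38, 2 passed, against 1 with luciferase alone as control and 0 to 2 with single arrays left out (0 without replicate 2 of sh_38). The sh_38 median of 0.21 was 0.25 against scrambled alone, 0.17 against luciferase alone and 0.17 to 0.27 (0.165 to 0.267) with single arrays left out. Between sh_83 and the arrays labelled sh_84, none passed, but 1 (MYL9) did without the dimmest genes, with a trended and robust variance and with the replicate number as a block, and 0 to 1 did with single arrays left out (1 without either scrambled array). With the block, MYL9 had an adjusted p of 0.0275 (0.00977 to 0.372 over its 18 alternatives), and calls over all genes numbered 2723 for sh_37 (2377 without it) and 1110 for sh_38 (848 without it). The labels do not say that a number marks anything shared, and deviations from the hairpin means correlated between same-numbered arrays from -0.47 to 0.68 over 15 pairs of hairpins, above 0.1 in 9, so the numbers were not taken to pair the arrays. For sh_83, for the arrays labelled sh_84 and for scrambled against luciferase, none of the 9 passed under any alternative. The counts with sh_37 and sh_38 come from the contrasts that chose the genes, so nothing is read from how steady they were. Calls over all genes with sh_37 also moved, with 1712 against luciferase alone and 2862 with the trended and robust variance.

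Of the pathway genes, 10 passed with sh_37, against 6 with luciferase alone, 18 with the trended and robust variance and 5 to 10 with single arrays left out (5 without either sh_37 array). With sh_38, 5 passed, against 3 with scrambled alone, 9 with the trended and robust variance and 2 to 9 with single arrays left out (2 without replicate 2 of sh_38, 9 without replicate 2 of scrambled). Between sh_37 and sh_38, 6 passed, and 1 to 6 with single arrays left out (1 without either sh_37 array or replicate 2 of sh_38). With sh_83, 0 passed, against 2 after quantile normalization and 2 with the trended and robust variance. With the hairpin as a random block, 4 passed over both H2AZ2 hairpins, against 1 with scrambled alone, 1 with luciferase alone, 2 after quantile normalization and 1 to 6 with single arrays left out. Over all genes that fit made 609 calls, against 14 with scrambled alone and 43 with luciferase alone. Leaving out both arrays labelled sh_84, an alternative chosen after seeing the data, moved no reported count by more than 1.5 times among the 9 genes and the pathway lists. The cause of these changes was not tested. Background signal is not known for these arrays, so no limit of detection can be given.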
